A study of Mus musculus with 22 samples.

Results

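Many mammalian genes can begin transcription at more than one place, and H3K4me3, trimethylation of lysine 4 of histone H3, marks the chromatin around starts that are in use or poised. The 965 protein-coding genes described here carry this mark at 2 or more annotated starts lying at least 6 kb apart, in blood stem and progenitor cells of the mouse fetal liver. They were chosen by level: each start had a mean of 16 counts per 1000000 counts (CPM) or more over the 4 H3K4me3 libraries, a level called marked below. They are 7.89% of the 12230 protein-coding genes with at least 1 marked start. They hold 2041 of the 68313 windows that remained when starts of a gene nearer than 6 kb were merged, as a rule onto the strongest. In 44 of the 965 genes the strongest start had no other marked start at least 6 kb away. There the marked pair at least 6 kb apart with the largest summed mean was kept, without the strongest start. In each gene the start with the highest mean among those kept is called the main start (965). Each other one is called an alternative start (1076), which gives 1076 pairs of starts. The rule used the mean level over both genotypes and not their difference, but a start could enter through 1 genotype: 143 of the 2041 starts reached 16 CPM in the KO mean only and 29 in the WT mean only. Counts over the members are therefore given as descriptions.

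All embryos were taken at E14.5 and carried a floxed Mettl3 gene, which encodes the catalytic subunit of the m6A RNA methyltransferase. Cre driven by the Vav promoter, active in the blood lineage, made the deficient embryos (KO), and their controls (WT) lacked Cre. Sorted Lin-Sca-1+c-Kit+ (LSK) cells gave 2 KO and 2 WT libraries of H3K4me3 by CUT&RUN, in which a nuclease tethered to an antibody cuts out the marked chromatin, and 3 KO and 3 WT libraries of bulk RNA-seq. The libraries are biological replicates, per the labels.

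Promoters differ in CpG content. CpG-rich promoters are often active in many cell types, and CpG-poor ones are more often restricted to some. Alternative starts give transcripts with another first exon, which can change the protein or only its leader. Classical cases in blood are Runx1, a transcription factor needed for blood formation with a distal and a proximal promoter, and Dnmt3a, a DNA methyltransferase with an internal start for a shorter protein.

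A start with promoter sequence in RefSeq (GRCm38.p6) lay within 150 bases of 735 of the 2041 starts, 434 main and 301 alternative. Of these main promoters, 78.6% had an observed over expected CpG ratio of 0.6 or more in the 300 bases from 250 before to 50 after the start, against 51.8% of the alternative promoters and 35.8% of all 32851 promoters in the table. The median ratio was 0.78 at main, 0.61 at alternative and 0.38 at all promoters. The promoters of the table were not chosen by H3K4me3 level, and marked promoters of genes with a single marked start were not compared. The match covered 45.0% of main and 28.0% of alternative starts, which also differ in level. The 7 sequences below show both kinds of start, each as the 250 bases before the RefSeq start with every CpG in capitals: the distal start of Tns1, the gene with the largest change between its starts, and both starts of Clta, Dnmt3a and Adar.
Tns1 alternative start, chr1:74124549-74124798, minus strand: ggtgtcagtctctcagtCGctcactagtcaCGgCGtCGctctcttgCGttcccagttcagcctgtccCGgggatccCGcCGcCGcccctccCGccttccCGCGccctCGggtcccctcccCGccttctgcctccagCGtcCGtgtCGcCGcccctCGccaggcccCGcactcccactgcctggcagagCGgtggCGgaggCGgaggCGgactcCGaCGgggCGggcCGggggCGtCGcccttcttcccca
Clta main start, chr4:44012420-44012669, plus strand: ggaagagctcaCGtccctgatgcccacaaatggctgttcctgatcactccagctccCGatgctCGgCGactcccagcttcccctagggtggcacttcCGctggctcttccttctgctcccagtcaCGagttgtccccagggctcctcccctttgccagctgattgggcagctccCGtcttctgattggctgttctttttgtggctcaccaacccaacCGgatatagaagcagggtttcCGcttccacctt
Clta alternative start, chr4:44004193-44004442, plus strand: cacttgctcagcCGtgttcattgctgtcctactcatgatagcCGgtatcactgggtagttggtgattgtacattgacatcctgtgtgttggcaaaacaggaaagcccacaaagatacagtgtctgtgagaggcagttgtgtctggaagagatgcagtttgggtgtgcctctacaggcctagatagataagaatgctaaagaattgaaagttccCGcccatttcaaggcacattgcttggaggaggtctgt
Dnmt3a main start, chr12:3891494-3891743, plus strand: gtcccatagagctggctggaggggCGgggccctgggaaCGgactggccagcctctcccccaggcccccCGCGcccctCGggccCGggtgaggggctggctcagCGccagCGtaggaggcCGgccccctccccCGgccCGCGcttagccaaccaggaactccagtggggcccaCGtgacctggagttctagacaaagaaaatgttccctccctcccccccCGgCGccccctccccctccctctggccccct
Dnmt3a alternative start, chr12:3806730-3806979, plus strand: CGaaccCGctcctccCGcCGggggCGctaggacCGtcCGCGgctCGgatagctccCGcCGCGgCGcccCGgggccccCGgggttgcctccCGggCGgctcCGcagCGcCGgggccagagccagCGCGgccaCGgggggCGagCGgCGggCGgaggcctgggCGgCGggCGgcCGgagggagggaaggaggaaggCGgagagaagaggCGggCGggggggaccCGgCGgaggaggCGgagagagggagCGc
Adar main start, chr3:89730468-89730717, plus strand: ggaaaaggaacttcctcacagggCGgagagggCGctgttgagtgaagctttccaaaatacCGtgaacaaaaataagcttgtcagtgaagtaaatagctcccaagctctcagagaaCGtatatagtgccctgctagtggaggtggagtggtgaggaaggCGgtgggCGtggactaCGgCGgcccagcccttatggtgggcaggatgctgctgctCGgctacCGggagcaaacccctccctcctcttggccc
Adar alternative start, chr3:89714988-89715237, plus strand: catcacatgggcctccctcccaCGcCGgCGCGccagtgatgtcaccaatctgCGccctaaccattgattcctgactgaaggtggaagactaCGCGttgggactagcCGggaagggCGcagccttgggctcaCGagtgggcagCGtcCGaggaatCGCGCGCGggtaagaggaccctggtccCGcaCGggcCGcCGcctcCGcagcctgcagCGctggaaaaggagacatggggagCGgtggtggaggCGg
The Tns1 sequence holds 30 CpGs and the distal Dnmt3a sequence 38. In Dnmt3a and Adar the main start was the CpG-poorer one, with 15 against 38 and 10 against 24 CpGs, whereas in Clta the alternative start held 3 CpGs and the main start 9. The string TATAAA, searched on both strands in the 300 bases, was present in 3.69% of the main and 4.98% of the alternative promoters, and in 13.6% of all promoters. 

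**Figure D1:**
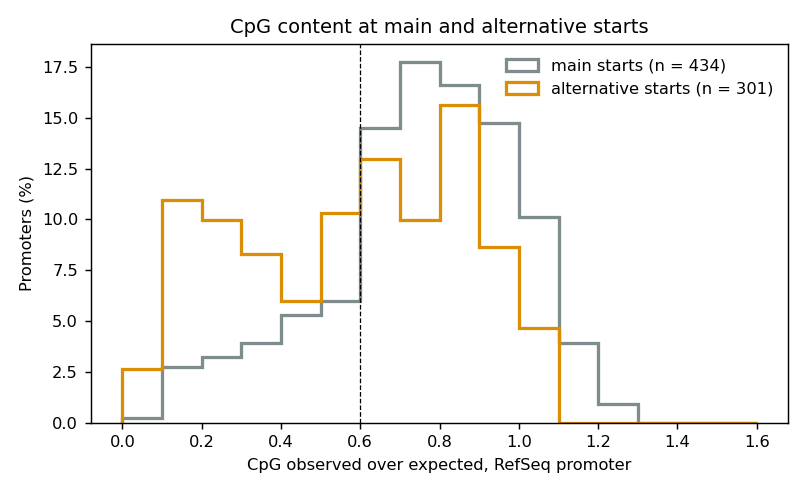
Observed over expected CpG ratio in the 300 bases around 434 main and 301 alternative starts with a RefSeq promoter, as the percentage of each class in bins of 0.1 (dashed line at 0.6). Main starts lie mostly to the right of the line (78.6%), while alternative starts spread over both sides (51.8% at or above it).

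The libraries held 13836762 and 14451593 counts (KO) and 14346314 and 11508749 counts (WT) in the strongest window of each gene. Marked windows took 88.2% and 85.5% of the counts in KO and 84.4% and 81.0% in WT. Mettl3 RNA was 4.13 to 6.31 CPM in the 3 KO and 33.2 to 43.0 CPM in the 3 WT bulk libraries, with no overlap. Among markers of the sorted cells, mean H3K4me3 was 93.3 CPM at Kit and 47.1 at Cd34, but 7.40 at Ly6a, which encodes Sca-1 and so lay under the marked level. The hepatocyte gene Alb was at 1.68 CPM, and its RNA was highest in WT library 1 (65.0 CPM, against 4.70 to 19.5 CPM in the others). The endothelial gene Cdh5 had 19.4 and 21.2 CPM of H3K4me3 in KO and 13.2 and 12.9 CPM in WT, and RNA of 2.31 to 2.43 CPM in KO and 5.00 to 6.41 CPM in WT; its part in the results below was not tested. Bulk libraries differed in the sex of the embryos, as Ddx3y RNA was 0 in KO library 1 and Xist RNA 0.148 CPM in WT library 3.

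The median level was 61.7 CPM at main and 28.2 CPM at alternative starts, and the median log2 fold change (KO over WT) was 0.36 at main and 0.31 at alternative starts. That shift is not particular to these genes: it was 0.32 over all 17023 marked windows and -0.18 over all 66812 windows tested. By the quasi-likelihood test of edgeR, adjusted over all windows by the Benjamini-Hochberg method, 243 of the 2041 windows passed an adjusted p of 0.05 (11.9%), 230 higher and 13 lower in KO. Of all windows, 7.94% passed (3.46% higher, 4.48% lower), of marked windows 6.47% (6.12% higher, 0.358% lower), and of the strongest windows of protein-coding genes with a single marked start 4.9% (4.72% higher, 0.178% lower). Main starts gave 58 higher and 1 lower, and alternative starts 172 higher and 12 lower. The count and its split depended on scaling and on single libraries: it was 243 higher and 131 lower with library size alone, 219 and 153 with an offset following the level, and 79 and 74 when marked windows were fitted alone. The median over the 2041 windows, 0.34, was 0.08, 0.03 and 0.02 under these settings, and when marked windows were fitted alone the alternative starts gave 34 higher and 55 lower. The count called was 61 without KO replicate 1, 36 without KO replicate 2, 366 without WT replicate 1 and 130 without WT replicate 2.

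Calls were more frequent at weaker windows. Between 16 and 32 CPM, 20.9% of alternative and 21.8% of main windows were called higher, against 13.0% of the marked windows of other protein-coding genes. Between 32 and 64 CPM these shares were 10.5%, 8.16% and 3.85%, and at 64 CPM or more 0 of 71, 5 of 446 and 17 of 3401 windows were called higher. The median standard error of the log2 fold change was 0.18 at alternative and 0.23 at main starts.

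**Figure D2:**
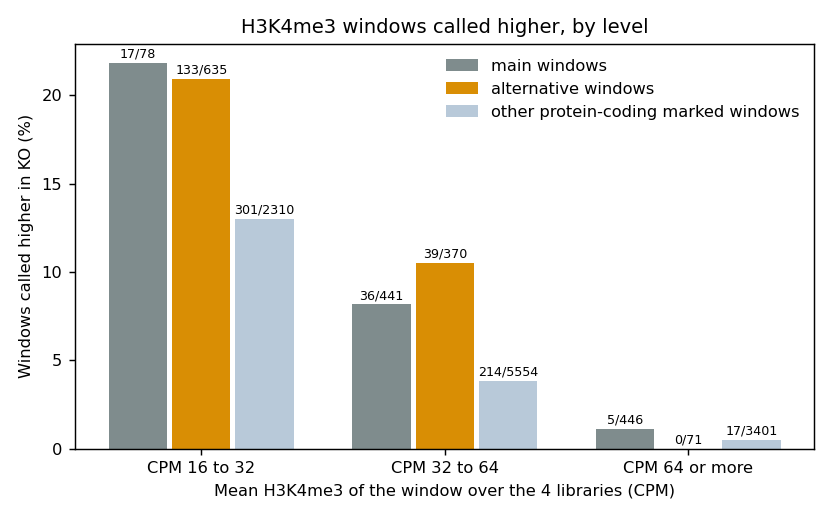
Percentage of H3K4me3 windows called higher in KO (vertical axis) in 3 classes of mean level (horizontal axis, CPM over 4 libraries), for main starts, alternative starts and marked windows of other protein-coding genes, with the number called over the number tested above each bar. In each class but the highest, main and alternative starts lie close together and above the other windows; no alternative start of 64 CPM or more was called.

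The comparison within a gene asks whether the mark changed differently at its starts. It sets the fold change at the alternative start against that at the main start of the same libraries, so that one scaling factor per library cancels; a positive difference means that the alternative start gained relative to the main one. In 944 of the 1076 pairs (87.7%) the difference lay within 0.5 on the log2 scale, and in 8 it was beyond 1. The median was -0.06, with quartiles of -0.25 and 0.11, and the median standard error was 0.34. The median was -0.0081 without KO replicate 1, -0.13 without KO replicate 2, -0.13 without WT replicate 1 and -0.0072 without WT replicate 2, and 0.00095 with an offset following the level, so that its distance from 0 rested on single libraries and on the scaling. By the quasi-likelihood test of this difference, adjusted over the 15794 pairs of the whole table, 6 pairs passed (0.558%), 2 toward the alternative and 4 toward the main start. Of all pairs, 2.5% passed (0.203% toward the alternative, 2.3% toward the main start), and of pairs with 2 marked windows in genes of any type 0.634% (0.181% and 0.453%). At an unadjusted p under 0.05 there were 16 of the 1076 pairs toward the alternative and 51 toward the main start. The share of all pairs at this unadjusted level was not counted, so no lean is read from this split. The 2 KO libraries lay on one side of both WT libraries in 534 pairs (49.6%), against 56.8% of all pairs.

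The count of 6 depended on the fit. It was 1 with DESeq2 (Tns1), 31 when only the 1076 pairs were fitted and 199 (92 toward the alternative, 107 toward the main start) with an offset following the level; leaving out KO replicate 1, KO replicate 2, WT replicate 1 or WT replicate 2 gave 1, 2, 3 or 1. Tns1 passed in each of these fits. Of the 6 pairs, 4 include a start that reached 16 CPM in the mean of 1 genotype only: the main start of Tns1 (WT) and the alternative starts of Tars2 (KO), Ift140 (WT) and Tapt1 (WT).

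**Figure D3:**
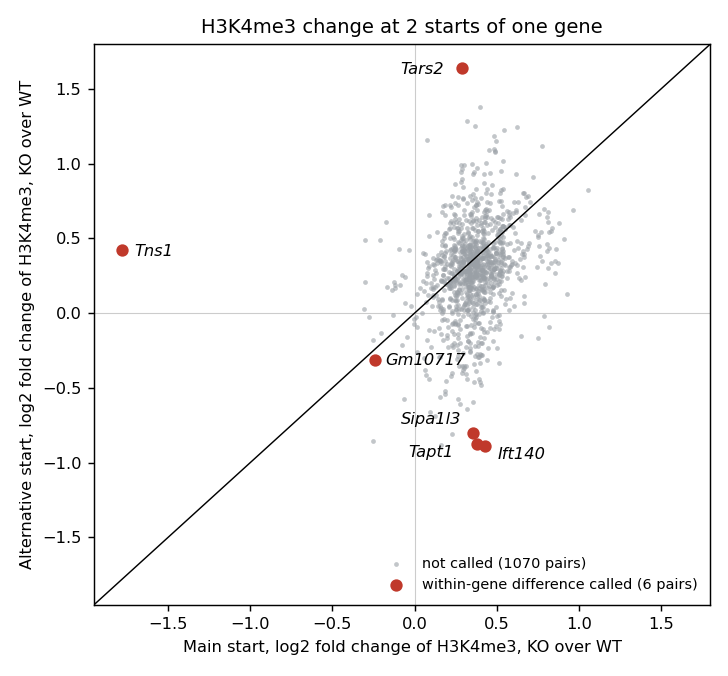
Log2 fold change of H3K4me3 (KO over WT) at the alternative start (vertical axis) against the main start (horizontal axis) for 1076 pairs; red points are the 6 pairs whose difference passed and the line marks equal change. Most points cluster around the medians of 0.36 (main) and 0.31 (alternative), and Tns1 stands far to the left with a main start at -1.78.

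Tns1 encodes tensin 1, which links integrins to the actin cytoskeleton at focal adhesions. Its starts had almost the same mean, 23.84 and 23.81 CPM, so that which one is called main is arbitrary. The one called main (chromosome 1, 74001567, minus strand) lies inside the gene, 122880 bp downstream of the distal start at 74124447, whose CpG-rich sequence is given above. At the internal start the level was 10.8 and 10.7 CPM in KO and 37.4 and 36.4 CPM in WT. At the distal start it was 26.9 and 27.6 CPM in KO and 21.8 and 18.9 CPM in WT. The internal start fell by 1.78 on the log2 scale (SE 0.19, edgeR adjusted p = 9.11e-18), while the distal start did not pass (0.42, SE 0.18, adjusted p = 0.109). The difference between them was 2.205 (SE 0.35, edgeR adjusted p = 1.25e-06). In both KO libraries the distal start held the larger part of the reads of the pair, 71.3% and 72.1%, and in both WT libraries the smaller, 36.8% and 34.1%.

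Upstream of the internal start, the annotated Tns1 starts above 5 CPM other than the distal one gave intermediate values. A start at 74037133, between both, had a mean of 11.9 CPM, under the marked level, with 9.35 and 8.33 CPM in KO and 15.8 and 14.0 CPM in WT. A start at 74096868 had 6.73 and 6.87 CPM in KO and 9.95 and 7.61 CPM in WT. The log2 ratio of the group means at these starts was -1.78 at the internal start, then -0.75 and -0.37, and 0.42 at the distal start. Weaker starts between them did not keep this order, with -0.57 at 74016422 (3.86 CPM) and -0.07 at 74091351 (2.88 CPM). The distal start lies 1094 bp from a start of Rufy4, an endosomal adaptor gene, whose strongest window gave 27.1 and 27.2 CPM in KO and 21.5 and 18.9 CPM in WT; reads of these windows cannot be assigned to one gene. Tns1 RNA was 39.0, 33.8 and 37.7 CPM in KO and 80.3, 98.9 and 80.6 CPM in WT. All KO values lay below all WT values, and the RNA fell by 1.23 on the log2 scale (SE 0.10, edgeR adjusted p = 4.76e-05). In such bulk samples, fewer cells of a type and less RNA per cell cannot be told apart.

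**Figure D4:**
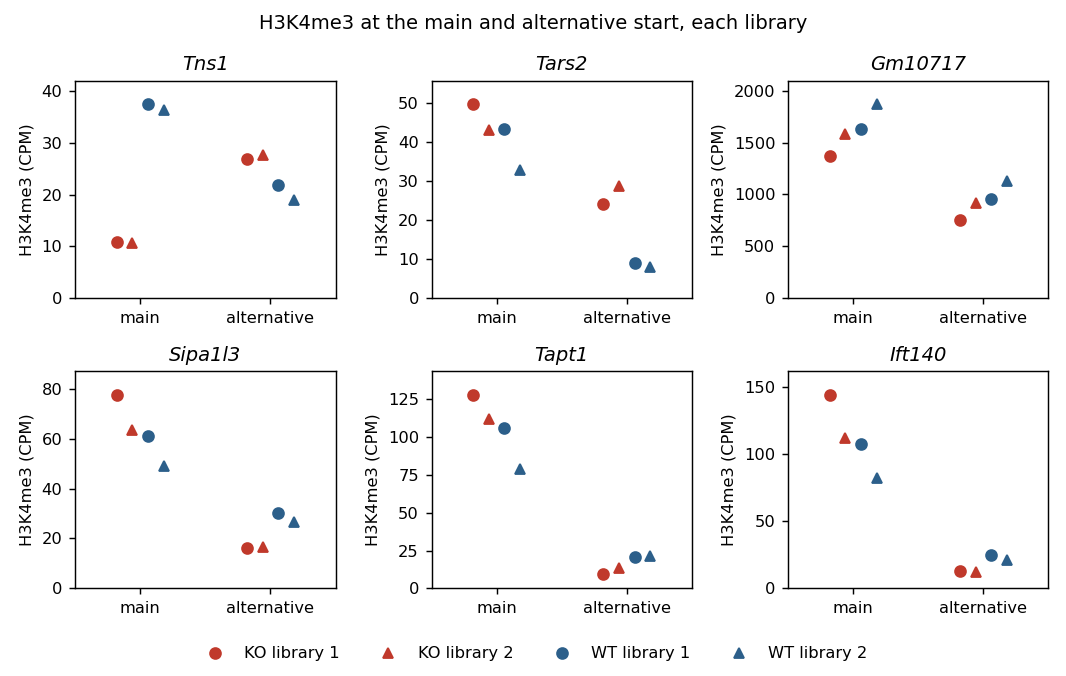
H3K4me3 in CPM (vertical axes, each from 0) at the main and the alternative start of the 6 genes whose starts differed, with 1 point per library (circles library 1, triangles library 2). In Tns1 the KO libraries are low at the main start only; in Ift140, Tapt1 and Sipa1l3 they are low at the alternative start and in Tars2 high there.

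Tars2, encoding the mitochondrial threonyl-tRNA synthetase, was the other gene with a difference toward its alternative start. That start (chromosome 3, 95742146, minus strand) lies 12716 bp downstream of the main start at 95754862. The alternative start had 24.2 and 28.8 CPM in KO and 8.98 and 8.05 CPM in WT, and the main start 49.7 and 43.2 CPM against 43.3 and 32.8 CPM. The KO libraries were higher than both WT libraries at the alternative start, whereas at the main start KO library 2 lay just below WT library 1. The difference was 1.34 (SE 0.37, edgeR adjusted p = 0.024). The alternative start, annotated with a processed transcript, lies 2577 bp from a start of Ecm1, which encodes an extracellular matrix protein. The strongest Ecm1 window itself had 26.9 and 32.9 CPM in KO and 9.40 and 7.90 CPM in WT, and rose by 1.79 (SE 0.18, edgeR adjusted p = 6.32e-20). Reads of these windows cannot be assigned to one gene. Neither RNA passed: the log2 change was 0.05 (adjusted p = 0.612) for Tars2 and 0.00 (adjusted p = 0.991) for Ecm1.

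Ift140, Tapt1 and Sipa1l3 had a difference toward the main start. Each had an alternative start that fell in KO and is annotated with a retained-intron transcript. Ift140 encodes a subunit of the intraflagellar transport complex of cilia. Its alternative start (chromosome 17, 25090671, plus strand, 74580 bp downstream) had 12.9 and 11.8 CPM in KO and 24.5 and 21.2 CPM in WT, and its main start, 861 bp from a start of Cramp1l, had 145 and 112 CPM against 108 and 82.5 CPM. The alternative start fell by 0.89 (adjusted p = 3.53e-05), the main start did not pass (0.43), and the difference was -1.32 (SE 0.29, edgeR adjusted p = 0.0017). Ift140 RNA was 50.7, 44.7 and 47.9 CPM in KO and 72.3, 83.2 and 74.9 CPM in WT, and fell by 0.68 (SE 0.08, edgeR adjusted p = 0.00026).

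Tapt1, a membrane protein gene, had 9.52 and 13.1 CPM in KO and 20.5 and 21.4 CPM in WT at the start 22113 bp downstream of its main start (chromosome 5, 44204513 and 44226626, minus strand). The difference was -1.28 (SE 0.30, edgeR adjusted p = 0.0046). Another Tapt1 start, at 44218212, had 16.9 and 19.3 CPM in KO and 22.1 and 21.7 CPM in WT, a difference of -0.67 that did not pass (adjusted p = 0.153). Tapt1 RNA did not pass (-0.07, adjusted p = 0.368).

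Sipa1l3 encodes a GTPase-activating protein for Rap. Its start at 29339063 (chromosome 7, minus strand), 179578 bp downstream of the main start at 29518641, had 16.2 and 16.5 CPM in KO and 30.3 and 26.8 CPM in WT, a difference of -1.16 (SE 0.36, edgeR adjusted p = 0.047). The other marked start of this gene, 13181 bp downstream of the main one, did not share it: it had 21.5 and 24.98 CPM in KO and 17.5 and 17.6 CPM in WT, and its difference was 0.05 (SE 0.36). Sipa1l3 RNA did not pass (0.21, adjusted p = 0.078).

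The sixth pair, in the predicted gene Gm10717 on chromosome 9 (3025417 and 3032085), had 1373 and 1585 CPM in KO and 1627 and 1870 CPM in WT at the main start, and 754 and 921 CPM against 953 and 1128 CPM at the other. The difference was small, -0.07 (SE 0.01, edgeR adjusted p = 0.0056), at levels far above those of any other gene named here, and the bulk RNA count of Gm10717 was 0 in every library. The start called main was not the strongest of this gene. A start at 3026151 had a mean of 1670 CPM against 1614 CPM, but no marked start at least 6 kb away. Of the 6 calls, those of Tars2 and Sipa1l3 were lost without any one of the 4 libraries; those of Ift140 and Tapt1 were lost without KO replicate 1, KO replicate 2 or WT replicate 2, and that of Gm10717 without KO replicate 1, WT replicate 1 or WT replicate 2. The difference kept its sign in each of these, ranging from -1.44 to -1.20 for Ift140, from -1.62 to -0.96 for Tapt1, from -1.31 to -1.001 for Sipa1l3 from 1.11 to 1.56 for Tars2, and from -0.11 to -0.032 for Gm10717. The Gm10717 call was also lost with DESeq2 (SE 0.32, adjusted p = 0.912), with the offset following the level (-0.037) and with the pairs of members alone.

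The 4 genes included as textbook cases of alternative promoters did not pass in the pair test given above. Lmo2 passed with an offset following the level, and Adar and Lmo2 passed with the replicate number as a block. Runx1 and Dnmt3a passed in neither. Runx1 (chromosome 16) had 182 and 154 CPM in KO and 135 and 99.3 CPM in WT at its proximal start, 92696125, and 120 and 109 CPM against 102 and 74.0 CPM at its distal start, 92825778. The KO libraries were higher at both, and the difference was -0.13 (SE 0.17, edgeR adjusted p = 0.638). Dnmt3a kept 42.0% and 42.2% of the reads of its pair at the distal start in KO and 43.4% and 41.4% in WT, a difference of -0.02 (SE 0.33, edgeR adjusted p = 0.981). Adar, the RNA-editing enzyme with constitutive and interferon-induced promoters, had 61.2 and 55.9 CPM in KO and 43.9 and 31.2 CPM in WT at its main start, and 41.7 and 36.5 CPM against 31.9 and 29.0 CPM at the start 15416 bp upstream. Its difference was -0.30 (SE 0.36, edgeR adjusted p = 0.596), while Adar RNA rose by 0.58 (SE 0.06, edgeR adjusted p = 0.00017). Lmo2, an adaptor of blood transcription factors, had 47.3 and 44.1 CPM in KO and 58.5 and 50.3 CPM in WT at its distal start and 153 and 117 CPM against 125 and 88.1 CPM at the main start. The groups did not overlap at the distal Lmo2 start, but the difference of -0.59 (SE 0.23, edgeR adjusted p = 0.118) did not pass; with an offset following the level it did, at -0.53.

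The 4 largest differences in each direction among the pairs that did not pass are named here, a choice made after their values were seen. Toward the alternative start these were Tmcc1 (1.07, SE 0.37), an endoplasmic reticulum gene, Cdk5rap1 (1.00, SE 0.37), a modifier of mitochondrial tRNA, Ulk1 (0.95, SE 0.36), an autophagy kinase, and Fanca (0.88, SE 0.35), of the Fanconi anaemia DNA repair pathway. The Cdk5rap1 alternative start had 46.9 and 44.3 CPM in KO and 21.6 and 13.5 CPM in WT, and the main start 45.9 and 40.0 CPM against 38.6 and 26.5 CPM, so that both starts were about level in KO only. Toward the main start they were Ubac1 (-1.05), a ubiquitin ligase subunit, Clta (-1.04), clathrin light chain A, Arrb1 (-0.96), a beta-arrestin, and Btrc (-0.96), an F-box protein. The CpG-poor Clta start printed above had 14.2 and 15.04 CPM in KO and 25.01 and 26.2 CPM in WT, and the main start 86.8 and 76.3 CPM against 78.6 and 60.8 CPM. The pair of Hnrnpa2b1, the RNA-binding protein on the list of m6A genes, had -0.84 (SE 0.28, edgeR adjusted p = 0.064).

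Plec, which encodes the cytoskeletal linker plectin, showed 3 marked starts with unlike values. The middle start at 76206321 (chromosome 15) had 90.3 and 87.1 CPM in KO and 40.9 and 34.1 CPM in WT, a log2 change of 1.24. The main start, 8112 bp downstream, changed by 0.63 and the distal start, 33169 bp upstream of the main one, by 0.48. The middle start differed from the main one by 0.61 (SE 0.24, edgeR adjusted p = 0.125) and the distal one by -0.15 (SE 0.23). Neither difference passed, while Plec RNA rose by 0.54 (edgeR adjusted p = 0.00052).

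The difference between starts varied with their relative strength. Where the main start was under 1.5 times as strong as the alternative, the median difference was -0.03 (376 pairs), from 1.5 to 2 times -0.02 (204 pairs), from 2 to 4 times it was -0.10 (386 pairs), and over 4 times -0.20 (110 pairs). Pairs of the whole table were also divided by the level of the weaker window, which is another measure. The median difference was -0.39 under 1 CPM, -0.53 at 1 to 2 CPM, -0.59 at 2 to 4 CPM and -0.05 at 16 CPM or more. With an offset following the level, the median over the 1076 member pairs was 0.00095. By distance, the member medians followed no order: -0.09 at 6 to 10 kb (288 pairs), -0.03 at 10 to 20 kb (260 pairs) and -0.04 beyond 100 kb (103 pairs). Alternative starts upstream of the main start (326) and downstream of it (750) had medians of -0.04 and -0.07. In 393 pairs (36.5%) a start of another protein-coding gene lay within 6 kb of one of the starts, 4 of the 6 called pairs among them; the median difference was -0.04 in these and -0.06 in the rest.

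In 28 pairs the stronger start in both KO libraries was not the stronger one in both WT libraries. The alternative start was the stronger one in KO in 7 and in WT in 21 of them. Tns1 was the only one of the 28 whose difference passed. Next in size were Cdk5rap1, with 50.6% and 52.6% of the reads of the pair at the alternative start in KO and 35.9% and 33.7% in WT, and Nbea, a vesicle-trafficking gene, with 42.9% and 37.9% in KO and 52.9% and 55.7% in WT. Over all 1076 pairs, the share of the alternative start moved by 5 percentage points or less in 818 (76.0%) and by more than 10 points in 36.

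**Figure D5:**
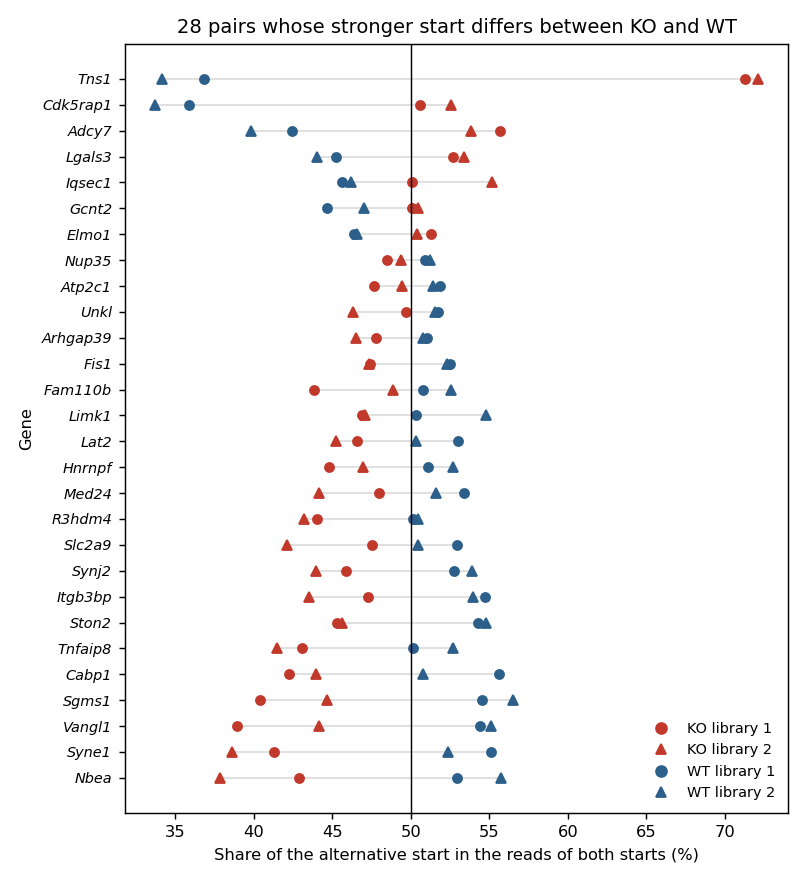
Share of the alternative start in the reads of both starts (horizontal axis, %) for the 28 pairs whose stronger start differed between KO and WT in all libraries, 1 row per gene and 1 point per library. Most rows sit close to the 50% line, and the KO points of Tns1 at 71.3% and 72.1% lie apart from the rest.

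Both starts passed the window test in 24 pairs, all of them with both starts higher in KO, and in no pair did the starts pass in opposite directions in this fit. With library size alone 1 pair did (Ubash3b), and with an offset following the level 2 did (Arhgap27 and Stard10). Only the alternative start passed in 160 pairs, only the main start in 42 and neither in 850. Among the 24 were the myeloid genes Mpo (myeloperoxidase; 0.81 at the main and 0.61 at the alternative start), Ncf4 (an oxidase subunit of phagocytes; 0.81 and 0.68) and Cd63 (a tetraspanin of granules; 0.62 and 0.93), the platelet integrin gene Itga2b (0.57 and 0.67), and the interferon-induced GTPase gene Irgm2 (0.67 and 0.80). The alternative start of Irgm2 lies 30 bp from a start of Igtp, another interferon-induced GTPase gene, whose strongest window changed by 0.80 as well, so that its reads cannot be assigned to one gene. The differences between starts in these 24 lay between -0.29 and 0.33. Of 22 of these genes with tested RNA, 12 rose and 3 fell, where 21.6% of all genes tested were higher and 22.6% lower. Those that fell were Cd33 (-0.79), Syne1 (-0.39) and Fgd3 (-0.36). The number of such pairs was 0 without KO replicate 1, 0 without KO replicate 2, 55 without WT replicate 1 and 3 without WT replicate 2, and 10 when marked windows were fitted alone.

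On the list of granulocyte and monocyte genes, 6 genes had alternative starts (Cd63, Clec12a, Fcgr3, Mpo, Prtn3, Spi1), and 8 of their 12 windows were higher and none lower, where 6.12% of marked windows were higher, with no pair called; the median difference was -0.02. This count was 2 when marked windows were fitted alone, and 2, 1, 8 and 3 without KO replicate 1, KO replicate 2, WT replicate 1 and WT replicate 2. Prtn3, a neutrophil protease gene, had 131 and 114 CPM in KO and 79.2 and 60.1 CPM in WT at its main start, and 82.1 and 74.8 CPM against 60.1 and 47.7 CPM at the upstream one, which lies 68 bp from a start of Plppr3. Spi1, encoding the transcription factor PU.1, had changes of 0.52 and 0.55 at starts 14390 bp apart. RNA of 4 of the 6 genes rose, where 21.6% of all genes tested were higher. It rose by 1.67 for Prtn3 (SE 0.07, edgeR adjusted p = 8.75e-06) and by 1.34 for Fcgr3, an Fc receptor (SE 0.09, edgeR adjusted p = 2.77e-05). RNA of Itgam, a granulocyte and monocyte marker not among the 6, was lower in KO (7.84 to 8.61 CPM) than in WT (17.1 to 18.2 CPM). Its H3K4me3 was higher, at 25.6 and 33.0 CPM in KO and 22.5 and 18.4 CPM in WT (log2 change 0.52, SE 0.18, edgeR adjusted p = 0.048). Of 13 stem and progenitor genes with 28 windows, 1 window was higher, and of 7 lymphoid genes with 15 windows, 1; 6 of the 7 lymphoid genes had lower RNA, as had 22.6% of all genes tested. On the lists of erythroid and megakaryocyte genes (6 genes), interferon and RNA-sensing genes (Adar and Uba7), H3K4 methylation machinery (Kdm2b) and m6A machinery (Hnrnpa2b1), 2, 1, 0 and 0 windows were higher, none was lower, and no pair passed.

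Among the 12 alternative starts that fell, none had a main start that passed. Of all main starts, 6.11% passed and 1 was lower. The 12 were Ift140, Ubac1, Tapt1, AA986860, Clta, Sipa1l3, Hnrnph1, Ccnl1, Btrc, Sox6, Arrb1 and Atp2b4, with log2 changes from -0.89 (Ift140) to -0.54 (Atp2b4). Their median level was 19.6 CPM. Some, among them Ift140, Tapt1 and Clta, reached 16 CPM in the WT mean only and so entered through the genotype where they were high. At 8 of the 12 no protein-coding transcript began at that exact base, as at 488 of all 1076 alternative starts. Coding starts elsewhere in the same window were not counted. The number of alternative starts that were lower was 1 without KO replicate 1, 3 without KO replicate 2, 10 without WT replicate 1 and 15 without WT replicate 2. It was 7 with RLE factors, 55 when marked windows were fitted alone, 107 with library size alone and 112 with an offset following the level. RNA of 5 of the 12 genes fell and none rose, where 22.6% of all genes tested were lower and 21.6% higher. Sox6, a transcription factor of erythroid maturation, had the largest fall in RNA, by 1.18 (edgeR adjusted p = 0.0057). Of the 172 alternative starts that rose, 168 lay in a gene with tested RNA. That RNA was higher for 39 and lower for 39 of them, close to the shares of all genes.

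Across all members, RNA of 944 genes was tested, and 182 were higher and 273 lower (48.2% in all). Among all genes 44.2% passed (21.6% higher, 22.6% lower) and among protein-coding genes 46.9% (23.9% higher, 23.1% lower). The split was 145 higher and 353 lower when libraries were scaled by size alone. It was 172 and 174 without KO replicate 2, 156 and 157 without KO replicate 3, and 157 and 185 without WT replicate 2. It was 198 and 241 without KO replicate 1, 192 and 283 without WT replicate 1, and 213 and 240 without WT replicate 3. More genes were lower in each run, by a margin that depended on the library left out. Across these genes, which are not independent replicates, Spearman's rho of the RNA change was 0.15 with the main start, 0.16 with the alternative start and 0.05 with the difference between both. The fold changes at the 2 starts of a gene had a rho of 0.28; both come from the same 4 libraries.

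At the threshold itself, the weaker starts of Cbx3, Gsn and Nt5c2 had a mean of 16.01, 16.01 and 16.04 CPM and entered, while those of Nin, Adamtsl4 and Rab43, at 15.96, 15.95 and 15.92 CPM, did not. Pde4d, a phosphodiesterase gene, had the most marked starts, 5 over 642452 bp, with log2 changes from 0.24 to 0.86 and 1 called. Of the 10 genes with 4 marked starts, the 2 with the widest span are given. Foxp1, a transcription factor gene of B cell development, had 4 over 493171 bp with changes from 0.31 to 0.41 and none called, and Iqsec1 had 4 over 272156 bp with changes from 0.17 to 0.60 and 1 called.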

How the data were processed

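The authors deposited raw counts of CUT&RUN reads in a 3 kb window at each annotated transcript start, and raw counts of bulk RNA-seq reads per gene, per the labels. The submitters' processing notes name GRCm38.p5, STAR 2.5.3a, Bowtie2 2.2.9, Picard 2.9.0, bedtools and edgeR, without the step of each; the annotation release, duplicate removal and strand setting are not given in the sources used here. Library size was the sum over the strongest window of each gene, scaled by TMM. Counts were tested with edgeR 4.0.16 (R 4.3.3; filterByExpr, quasi-likelihood test, Benjamini-Hochberg over the whole table, adjusted p under 0.05); the pair test had the library as a block and a window by genotype term. All 2041 member windows passed the filter on low counts. DESeq2 1.42.0 was an alternative. The tests were checked on simulated data.

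The members, lists and tests were chosen with earlier results of these data known. Named genes were, by rule, the called pairs (up to 10 in each direction), called pairs on the lists, Runx1, Adar, Ikzf1, Lmo2 and Dnmt3a where they are members (Ikzf1 is not), 3 genes on each side of the level threshold and the 3 with most starts (ties taken by span); others were named after their values were seen. Numbered bulk replicates were not taken as pairs.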

Additional observations from a re-analysis of the deposited data

How the results depend on the processing

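Of 2041 windows at the starts of the 965 genes, 243 passed; this became 374 with library size alone, 372 with the offset following the level, 153 when marked windows were fitted alone and 36 to 366 when 1 library was left out. Other scaling by RLE factors, DESeq2 and no filter on low counts stayed within 1.5 times of it. Of the pairs, 6 passed; this became 1 with DESeq2, 199 with the offset following the level, 31 with the pairs of members alone, 29 of 2204 pairs at a mean of 8 CPM or more, 1 of 445 pairs at 32 CPM or more (Gm10717), 2 of 683 pairs without a start of another protein-coding gene within 6 kb, and 1 to 3 when 1 library was left out. With starts at least 10 kb apart it was 5 of 817, and without a filter on low counts 6. The Dnmt3a difference changed sign, to 0.0032 with the offset following the level, and ranged from -0.073 to 0.041 when 1 library was left out (0.041 without WT replicate 1). The cause of these changes was not tested. The bulk RNA count of 455 stayed between 313 and 503 in every alternative run.

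The same replicate numbers occur in KO and WT, and with 2 numbers the labels do not say what they share. Deviations of same-numbered H3K4me3 libraries correlated at 0.63 over marked windows. With the replicate number as a block, 1348 windows and 457 pairs passed (155 toward the alternative, 302 toward the main start), 5 of the 6 among them, and so did Adar (-0.29, SE 0.09, edgeR adjusted p = 0.0086) and Lmo2 (-0.60, SE 0.07, edgeR adjusted p = 4.76e-13); 28 pairs then had windows called in opposite directions. For bulk RNA the correlations were 0.31, 0.11 and 0.094, and 503 genes passed with the block. With 2 libraries in a group, most single pairs could not resolve differences near the median, and leaving out 1 library leaves the other group member assumed to vary like the rest.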
